A study of Homo sapiens with 16 samples.

Results

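The genes described here are the ligands and receptors of axon guidance, measured by bulk RNA-Seq in sublines of 2 human triple-negative breast cancer cell lines. Members were picked by symbol, as all protein-coding genes named SEMA, PLXNA to PLXND, SLIT, ROBO, NTN, EPHA, EPHB, EFNA or EFNB with a number. NRP1, NRP2, UNC5A to UNC5D and DCC were included as well. The families themselves were chosen with earlier results of these data known. Counts of called members beside the shares of all genes are therefore no independent test. The rule found 69 genes among the 19404 protein-coding genes of the count files, which hold 57820 genes in all. A member was tested in a serum condition where its counts summed to 10 or more over the 8 libraries, which 68 members reached in low serum and 65 in standard serum. UNC5D lay just inside this limit in low serum with 10 counts, and SLIT1 fell outside with 6. In standard serum DCC with 12 counts lay inside, whereas EPHA1 with 7, NTN3 with 4, and SLIT1 and UNC5D with 0 fell outside.

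MDA-MB-231 and MDA-MB-436 are mesenchymal breast cancer lines without hormone receptors or ERBB2 amplification. Both lines were stably transfected with 7TGP, a plasmid in which repeated Tcf/Lef binding sites drive eGFP, selected with puromycin, and sorted repeatedly by flow cytometry into 7TGP-NEG (Wnt-negative) and 7TGP-POS (Wnt-positive) sublines. Each of the 4 sublines was grown in low serum (0.5% FBS, harvested on day 3) and in standard serum (10% FBS, day 6), with 2 replicates per group and 16 libraries in all. Each group is thus 1 sorted subline, so that a difference between sublines is not replicated over independent sorts. The study's methods call the replicates biological duplicates, and the labels do not say whether they are separate cultures, so p-values measure only the spread between these samples. The study's methods assign a separate RNA selection, library kit, sequencer and read length to each serum condition, although the sample labels name 1 kit for all 16 libraries. Serum, day, library preparation and run cannot be told apart. For this reason the serum conditions were not tested against each other. The methods also give a different basal medium for each cell line, whereas the labels give DMEM for both.

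Library totals ran from 27918418 to 32667756 counts in low serum and from 31827130 to 46044073 in standard serum. Levels in replicates 1 and 2 of a group are CPM, which divide a gene's count by the total of its library. Levels are compared between genes only on the authors' TPM, which are scaled to gene length. Differences are log2 fold changes ± SE, with fold changes from edgeR's quasi-likelihood test. The SE is not an output of that test. It was derived as the absolute log2 fold change over the square root of the test's F statistic. P-values were adjusted by Benjamini-Hochberg over all protein-coding genes tested. A gene is called where the adjusted p is under 0.05 and the log2 fold change is at least 1 in size. Hormone receptors were near 0, with at most 0.175 TPM of ESR1 and 0.19 TPM of PGR, and ERBB2 was at 17.9 to 27.8 TPM. Summed TPM of the 7 mesenchymal markers ran from 1153 to 4314 over the MDA-MB-231 groups and from 587 to 1084 over those of MDA-MB-436, and that of the 7 epithelial markers from 518 to 1167 and from 4.96 to 9.08. Of these markers, VIM stood between 388 and 3712 TPM over the groups, and CDH1 was at most 0.10 TPM. FN1, ZEB1 and SNAI2 had at least 76.05, 34.9 and 17.4 TPM in the MDA-MB-231 groups. In MDA-MB-436 these 3 were at most 53.1, 15.9 and 4.155 TPM. CDH2 and TWIST1 were at most 0.65 and 0.055 TPM in MDA-MB-231, against 100 to 181 and 33.4 to 50.7 TPM in MDA-MB-436. SPARC was at most 1.21 TPM in MDA-MB-231 and 5.415 TPM in MDA-MB-436. KRT19, a keratin of epithelial cells, ranged from 513 to 1070 TPM in the MDA-MB-231 groups against 0.95 TPM or less in MDA-MB-436. Summed TPM of the 3 endothelial markers found was 0.06 to 0.74, that of 3 leukocyte markers 0.05 to 4.07, and that of 4 neuronal markers 2.66 to 13.6. In bulk RNA, a change in the number of cells that express a gene cannot be told apart from a change in the level per cell.

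Axon guidance genes were first described as cues that steer growing axons. Semaphorins bind plexins, with neuropilins as co-receptors for the secreted class. Slits bind Robo receptors, netrins bind DCC and UNC5 receptors, and ephrins bind Eph receptor tyrosine kinases on neighbouring cells, where both partners can signal. Many of these proteins also act in epithelia, blood vessels and tumours, where they bear on cell adhesion, migration and invasion.

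Most members were expressed in these cells. Of the 69, 58 reached a mean of 1 TPM in at least 1 of the 8 groups, 32 did so in all 8, and 11 in none. EPHA2, an Eph receptor often abundant in carcinoma cells, had the highest TPM of all members in 7 of the 8 groups. Its mean was 415 ± 13.7 TPM (SD, n = 2) in MDA-MB-231 7TGP-NEG in low serum and 793 ± 37.1 TPM in MDA-MB-231 7TGP-POS under standard serum. The secreted semaphorin SEMA3C stood first in MDA-MB-436 7TGP-POS under low serum, with 135 ± 12.5 TPM, ahead of EPHA2 with 110.4 ± 6.87 TPM. NRP1, PLXNB2 and PLXNA1 followed EPHA2 in both MDA-MB-231 7TGP-NEG groups, and PLXNA3, SEMA4B and PLXNB2 in both MDA-MB-436 7TGP-NEG groups. Plexins and neuropilins together summed to 581 and 594 TPM in the 2 low serum libraries of MDA-MB-231 7TGP-NEG but to 238 and 274 TPM in those of MDA-MB-436 7TGP-NEG. DCC, SLIT1 and UNC5D, receptors and a ligand known from the nervous system, were at or near 0 in every group.

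**Figure D1:**
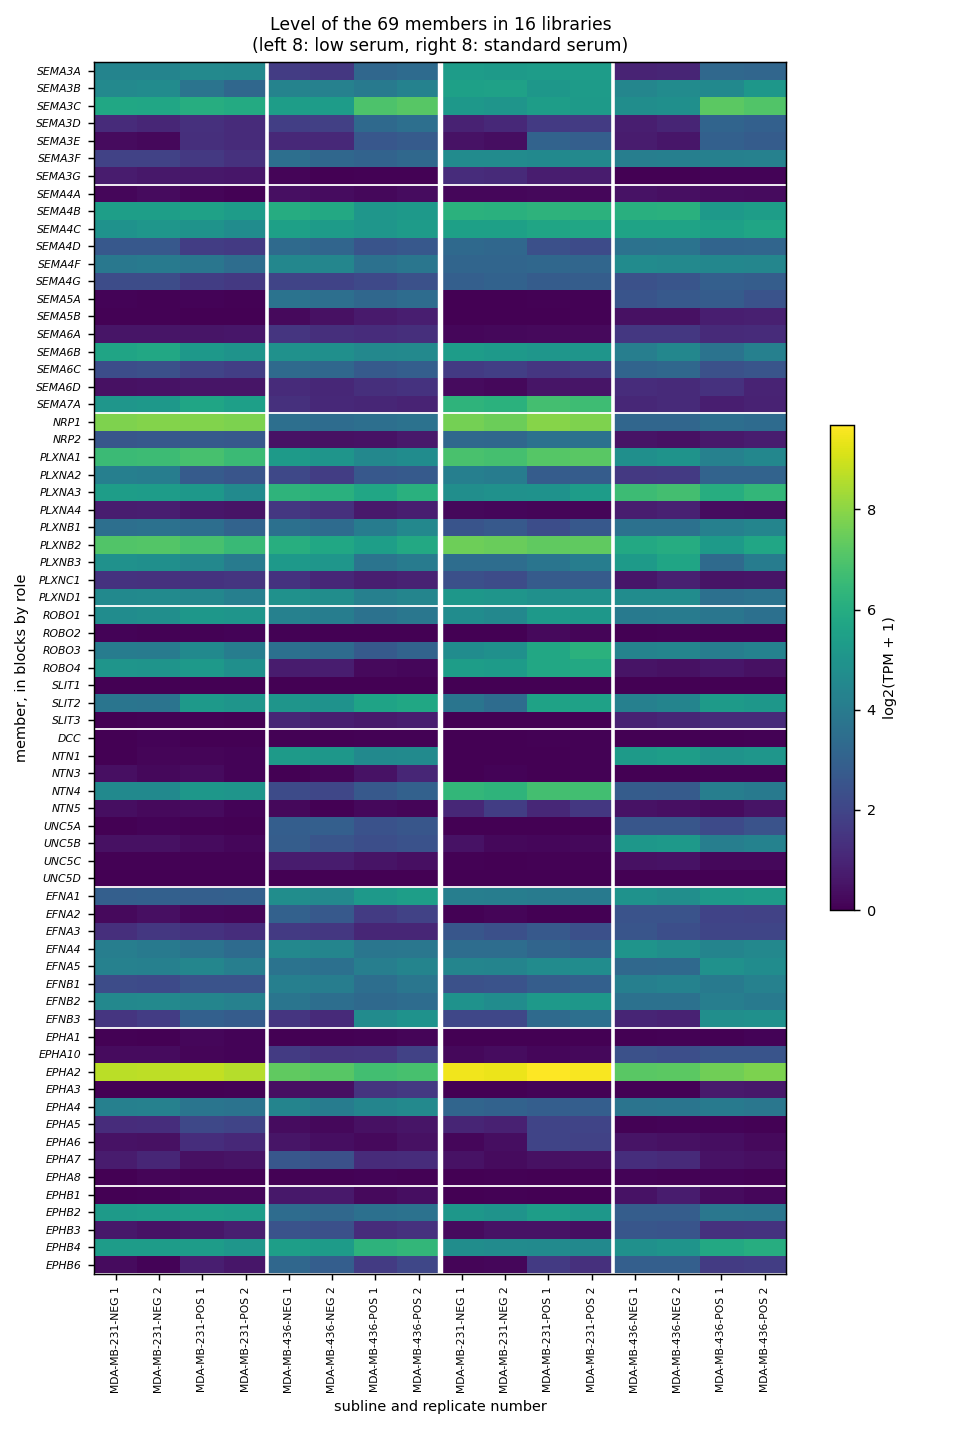
Level of each member (rows, in blocks by role) in each of the 16 libraries (columns, low serum on the left and standard serum on the right), as log2(TPM + 1). Rows such as NRP1, SEMA7A and ROBO4 are brighter in MDA-MB-231 and rows such as NTN1, UNC5A and SEMA5A in MDA-MB-436, in NEG and POS alike, and EPHA2 is the brightest row in 7 of 8 groups.

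The 7TGP-POS subline was compared with the 7TGP-NEG subline of the same cell line, to ask which guidance genes differ with Tcf/Lef reporter status. In MDA-MB-231 in low serum, 9 of 68 members were called, 7 higher and 2 lower in 7TGP-POS. Of all genes tested there, 5.90% were called, 3.50% higher and 2.40% lower. In standard serum, 14 of 65 members were called in MDA-MB-231, 11 higher and 3 lower, against 7.69% of all genes, 4.96% higher and 2.72% lower. In MDA-MB-436, 21 of 68 members were called in low serum, 13 higher and 8 lower, against 10.5% of all genes, 6.52% higher and 4.03% lower. In standard serum MDA-MB-436 had 20 of 65 members called, 11 higher and 9 lower, against 12.5% of all genes, 6.47% higher and 6.06% lower. By adjusted p alone, 36 and 46 of 68 members passed in MDA-MB-231 and MDA-MB-436 in low serum, against 38.9% and 52.0% of all genes. The same count in standard serum was 29 and 44 of 65, against 33.0% and 49.5%. The median log2 fold change of the tested members lay between -0.12 and 0.20 over these 4 comparisons, and that of all genes between -0.014 and 0.014. The highest of these, 0.20 in MDA-MB-231 in standard serum, was 0.040 with the 12 members at or under 3 counts in a group taken at their bound or ratio. EFNA2, EPHA3, EPHA8, EPHB1, NTN1, SEMA5B, SLIT3, UNC5A and UNC5C had no fold above the floor and were set to 0. The value of 0.040 thus rests in part on set values.

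Over the 4 comparisons, 32 of 68 members were called at least once, against 21.7% of all genes, and 36 were called in none. SEMA3E and EFNB3 were called higher in all 4, and no member was called lower in all 4. By adjusted p alone, EFNA5, NRP2, NTN4, SEMA3D and SLIT2 were also higher in all 4, and EFNA4 and SEMA4D lower in all 4. PLXNA2 and EPHB6 were called in opposite directions in the cell lines in both serum conditions. The shares of all genes that were higher or lower in all 4, or called in opposite directions, were not calculated. Whether the members exceed all genes in these counts was therefore not tested. In MDA-MB-231, 8 of 65 members tested in both serum conditions were called in the same direction in both, against 3.69% of all genes, and in MDA-MB-436 15 were, against 7.22%. Fitted values of members with 3 or fewer counts per library in a group, among them EPHA3, ROBO2, NTN3 and SEMA3G, depend on the prior count of the fit and are plotted as fitted.

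**Figure D2:**
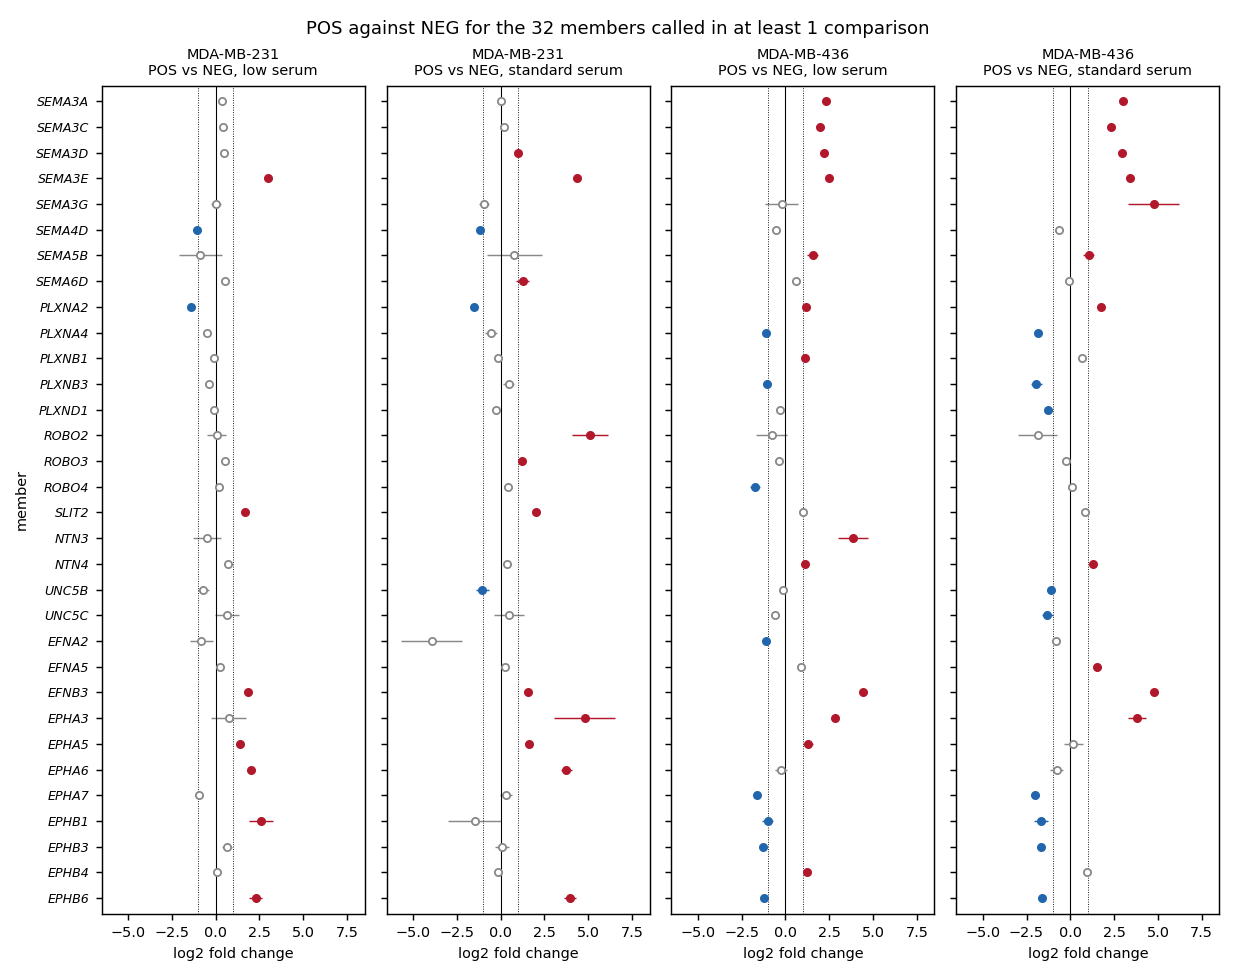
Log2 fold change of 7TGP-POS against 7TGP-NEG (x axis) with bars of 1 SE for the 32 members called at least once (rows), in 4 panels by cell line and serum. Filled red points were called higher and filled blue points lower, open grey points were not called, and dotted lines mark a log2 fold change of 1 in either direction; SEMA3E and EFNB3 are red in all 4 panels, and PLXNA2 and EPHB6 change colour between the cell lines.

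The secreted semaphorins, class 3, are ligands of neuropilin and plexin complexes, except that SEMA3E can bind PLXND1 directly. SEMA3E (ENSG00000170381, chromosome 7, 82992554 to 83278455, GRCh37) stood at 0.620 and 0.434 CPM in MDA-MB-231 7TGP-NEG and at 4.28 and 4.23 CPM in 7TGP-POS in low serum. In standard serum its values in these sublines were 0.690 and 0.503 CPM against 13.6 and 12.2 CPM. MDA-MB-436 7TGP-NEG held 2.48 and 2.65 CPM in low and 1.21 and 0.919 CPM in standard serum, and 7TGP-POS 14.3 and 15.0 CPM and 12.1 and 10.9 CPM. Every 7TGP-POS library thus lay above every 7TGP-NEG library of either line. The log2 fold changes in MDA-MB-231 were 3.01 ± 0.23, adjusted p = 2.54e-14 in low serum and 4.36 ± 0.20, adjusted p = 9.53e-12 in standard serum. In MDA-MB-436 they were 2.50 ± 0.13, adjusted p = 2.08e-19 and 3.38 ± 0.18, adjusted p = 3.84e-11. The difference between the cell lines in this response did not pass in low serum (0.51 ± 0.30, adjusted p = 0.171) and was below the size limit in standard serum (0.98 ± 0.30, adjusted p = 0.0147).

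SEMA3A, the classical collapse factor of growth cones, SEMA3C and SEMA3D rose with SEMA3E in MDA-MB-436 7TGP-POS. SEMA3A (ENSG00000075213) was at 6.80 and 6.29 CPM in MDA-MB-436 7TGP-NEG and 32.9 and 33.3 CPM in 7TGP-POS in low serum, and at 2.52 and 2.53 CPM and 21.7 and 20.7 CPM in standard serum. These were changes of 2.32 ± 0.083, adjusted p = 2.52e-25 and 3.01 ± 0.10, adjusted p = 1e-13. All 8 MDA-MB-231 libraries lay above these, with 75.1 and 74.1 CPM in 7TGP-NEG and 93.1 and 99.9 CPM in 7TGP-POS in low serum. In standard serum MDA-MB-231 had 98.0 and 94.9 CPM in 7TGP-NEG and 100.2 and 101 CPM in 7TGP-POS, with log2 fold changes of 0.38 in low and 0.0097 in standard serum, neither called.

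SEMA3C (ENSG00000075223) moved from 80.8 and 85.2 CPM to 327 and 338 CPM in MDA-MB-436 in low serum and from 45.0 and 45.8 CPM to 247 and 222 CPM in standard serum (1.99 ± 0.053, adjusted p = 8.33e-30 and 2.31 ± 0.086, adjusted p = 3.41e-13). In MDA-MB-231 it was at 135 and 132 CPM and 174 and 182 CPM in 7TGP-NEG and 7TGP-POS in low serum, and at 56.5 and 54.1 CPM and 68.9 and 63.7 CPM in standard serum, without a call. It is the most abundant of the class in MDA-MB-436 7TGP-POS. SEMA3D (ENSG00000153993) stood at 6.24 and 7.02 CPM against 30.1 and 31.8 CPM in MDA-MB-436 in low serum and at 1.72 and 2.17 CPM against 16.4 and 14.6 CPM in standard serum (2.21 ± 0.10, adjusted p = 3.93e-22 and 2.93 ± 0.16, adjusted p = 7.65e-11). Its MDA-MB-231 values were 4.17 and 3.47 CPM and 5.48 and 5.15 CPM in low serum and 1.93 and 2.61 CPM and 4.56 and 4.91 CPM in standard serum. The call in standard serum (1.02) sat at the size limit and was lost without 7TGP-NEG replicate 1 (0.82) or 7TGP-POS replicate 2 (0.98).

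These 4 genes lie within a few megabases of each other on chromosome 7. Of the other genes tested within 10 Mb of the SEMA3E start, 74 of 85 had a log2 fold change above 0 in MDA-MB-436 in low serum, as had 67 of 79 in standard serum, with medians of 0.91 and 0.84. Of these, 29 and 32 were called higher. In MDA-MB-231 the medians over the same window were -0.020 and -0.025, with 0 and 1 called higher. The 4 semaphorins ranged from 1.99 to 2.50 in MDA-MB-436 in low serum and from 2.31 to 3.38 in standard serum, and 9 of 85 and 8 of 79 other genes reached the lowest of them. After subtraction of the median of the 50 nearest genes tested, SEMA3A, SEMA3C, SEMA3D and SEMA3E stood at 1.34, 1.02, 1.22 and 1.53 in low serum and at 2.00, 1.39, 1.88 and 2.40 in standard serum. SEMA3E in MDA-MB-231 moved only from 3.01 to 2.93 and from 4.36 to 4.23. The number of copies of this region in the sublines was not tested.

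**Figure D3:**
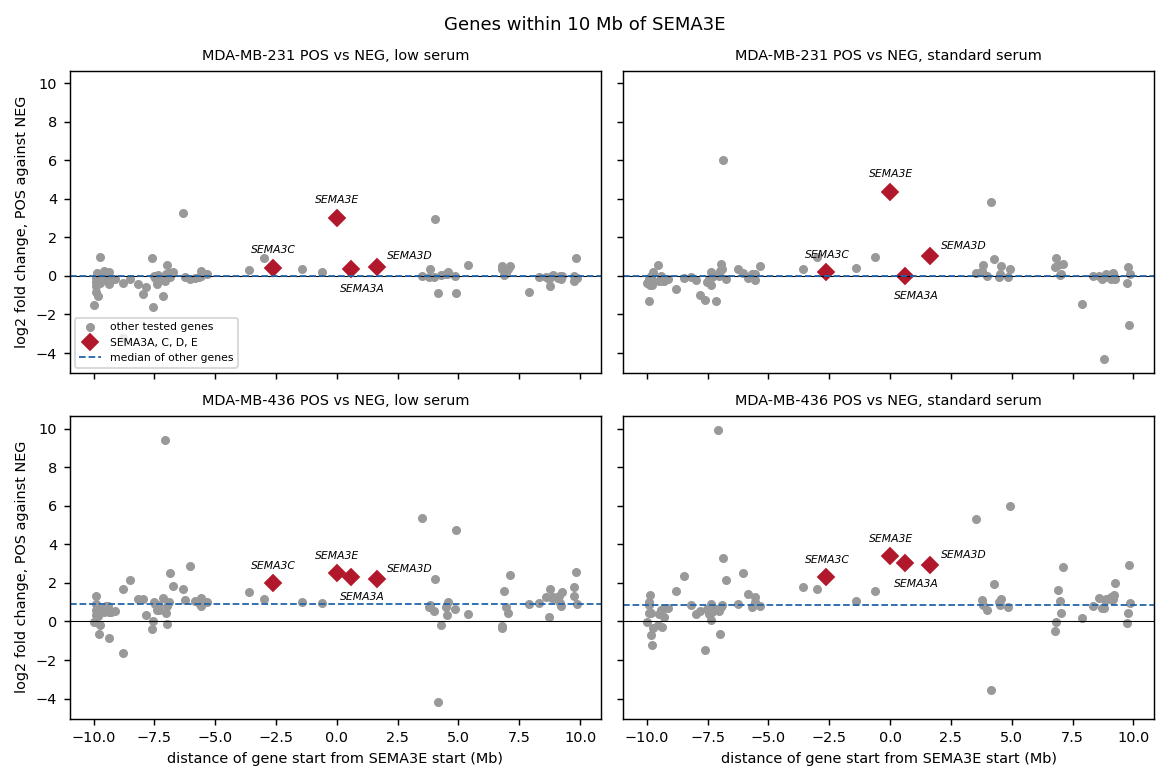
Log2 fold change of 7TGP-POS against 7TGP-NEG (y axis) for genes within 10 Mb of SEMA3E by distance of their start sites (x axis, Mb), in 4 panels by cell line and serum. Red diamonds are SEMA3A, SEMA3C, SEMA3D and SEMA3E, grey points are other tested genes, and the dashed line is their median, which lies near 0 in MDA-MB-231 and at 0.91 and 0.84 in MDA-MB-436.

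The other class 3 genes differed less. SEMA3B fell by 0.98 on the log2 scale in MDA-MB-231 in low serum, short of the size limit, and SEMA3F was not called with reporter status. SEMA3G, called higher for MDA-MB-436 7TGP-POS under standard serum, rested on 4 and 4 counts against 0 and 0, at least 1.19-fold higher against a floor of 3 counts per library, and the call was lost without 7TGP-NEG replicate 2 (adjusted p = 0.0635).

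The windows before 3 genes are shown because the reporter reads Tcf/Lef activity. SEMA3E was called higher in 7TGP-POS in all 4 comparisons, and SLIT2 was higher in all 4 by adjusted p. SEMA6D was called higher in 1 comparison only, a call lost when single libraries were left out, and is shown for the motif match given below. Other members called higher in both serum conditions of a line, such as EPHA3, NTN4 and SEMA3C, are not shown. The 250 bases before each annotated start (RefSeq, GRCh38.p14) were searched for ATCAAAG and CTTTGAT, the core Tcf/Lef motif on either strand, shown in capitals. Windows were given for 59 of the 69 members, with none for EFNB3, SEMA3A, NRP1, NTN1, NTN3, UNC5B, UNC5D, SEMA6A, SEMA6B and EPHA10. The motif was in 3 of 91 windows of members (3.30%) and in 2.26% of 35116 windows of all genes. The windows with the motif belong to SEMA3F, 48 bases before one of its starts, to SEMA4G, 35 bases before one of its starts, and to SEMA6D, 175 bases before one of its starts. Both SEMA3E windows and the SLIT2 window hold no match to these letters. Of the SEMA3E windows 1 is printed, and of the SEMA6D windows only that with the motif, the others holding no match.
SEMA3E, chr7:83649140-83649389, minus strand: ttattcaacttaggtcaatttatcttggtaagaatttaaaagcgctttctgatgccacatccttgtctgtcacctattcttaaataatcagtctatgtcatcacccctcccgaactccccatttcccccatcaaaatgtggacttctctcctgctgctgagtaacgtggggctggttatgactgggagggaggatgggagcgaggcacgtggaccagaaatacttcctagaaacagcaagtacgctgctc
SLIT2, chr4:20251655-20251904, plus strand: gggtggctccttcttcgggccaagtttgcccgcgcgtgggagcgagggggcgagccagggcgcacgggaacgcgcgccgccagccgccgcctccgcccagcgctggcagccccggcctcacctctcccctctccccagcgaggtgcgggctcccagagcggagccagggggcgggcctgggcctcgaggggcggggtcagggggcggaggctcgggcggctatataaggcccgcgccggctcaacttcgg
SEMA6D, chr15:47183839-47184088, plus strand: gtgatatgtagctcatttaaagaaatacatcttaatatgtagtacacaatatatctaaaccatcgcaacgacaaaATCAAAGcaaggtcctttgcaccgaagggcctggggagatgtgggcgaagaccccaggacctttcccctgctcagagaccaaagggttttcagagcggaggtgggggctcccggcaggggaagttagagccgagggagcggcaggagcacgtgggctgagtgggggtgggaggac

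Membrane semaphorins, classes 4 to 7, act between neighbouring cells or are shed. Of the 13, 1 was called in MDA-MB-231 in low serum and 2 in standard serum, against 5.90% and 7.69% of all genes. In MDA-MB-436 1 was called in each, against 10.5% and 12.5% of all genes. SEMA4D (ENSG00000187764), a ligand of PLXNB1, was at 31.1 and 30.6 CPM in MDA-MB-231 7TGP-NEG and 14.7 and 14.9 CPM in 7TGP-POS in low serum, and at 33.0 and 31.9 CPM and 15.7 and 14.2 CPM in standard serum. MDA-MB-436 had 41.5 and 38.3 CPM and 27.5 and 28.7 CPM in low serum and 45.0 and 45.1 CPM and 28.8 and 30.3 CPM in standard serum. SEMA4D was lower in 7TGP-POS in each of the 4, by 1.05 and 1.17 in MDA-MB-231 (SE 0.075 and 0.092, adjusted p = 3.85e-15 and 1.54e-08). In MDA-MB-436 it passed by adjusted p alone (-0.52 ± 0.067, adjusted p = 1.37e-08 and -0.67 ± 0.087, adjusted p = 4.69e-06). Less the median of its 50 neighbours, the MDA-MB-231 values were -0.76 and -0.78, which ends both calls.

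SEMA5B, a transmembrane semaphorin, was low in all libraries, with 0.398 and 0.768 CPM in MDA-MB-436 7TGP-NEG and 1.61 and 1.83 CPM in 7TGP-POS in low serum. In standard serum it had 0.622 and 0.613 CPM and 1.28 and 1.37 CPM, and its highest value in MDA-MB-231 was 0.0668 CPM. It was called in MDA-MB-436 at 1.56 ± 0.31, adjusted p = 5.12e-05 in low and 1.04 ± 0.32, adjusted p = 0.0108 in standard serum. The standard serum call was lost without either 7TGP-NEG replicate (1.05 and 1.02). It was also lost by DESeq2 (adjusted p = 0.241) and less the median of its 50 neighbours (0.82). SEMA6D was called higher in MDA-MB-231 in standard serum (1.26 ± 0.36, adjusted p = 0.0113), from 0.469 and 0.377 CPM to 1.07 and 1.06 CPM, and lost the call without 7TGP-NEG replicate 2, 7TGP-POS replicate 1 or 7TGP-POS replicate 2 (adjusted p = 0.0667, 0.0562 and 0.0576). SEMA7A, a membrane-anchored semaphorin that can signal through integrins, passed by adjusted p in MDA-MB-231 (0.68 and 0.47) below the size limit. SEMA5A did not differ beyond its error in MDA-MB-436 (-0.048 ± 0.067 and -0.049 ± 0.15), whereas of the other genes tested within 10 Mb of it on chromosome 5, 38 of 57 were called lower in low serum and, in standard serum, 45 of 55, with medians of -1.49 and -1.44.

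Plexins are the signalling receptors of semaphorins. PLXNA2 (ENSG00000076356, chromosome 1, 208195587 to 208417729), an A-class receptor, was at 96.1 and 90.3 CPM in MDA-MB-231 7TGP-NEG and 35.9 and 33.1 CPM in 7TGP-POS in low serum. The standard serum values were 62.3 and 58.6 CPM and 22.1 and 22.3 CPM. In MDA-MB-436 the order was reversed, with 14.4 and 11.2 CPM in 7TGP-NEG and 30.3 and 29.3 CPM in 7TGP-POS in low serum and 7.91 and 7.92 CPM and 27.0 and 27.7 CPM in standard serum. The 2 lines were thus far apart in the 7TGP-NEG state and close in the 7TGP-POS state. PLXNA2 fell by 1.43 ± 0.068 and 1.50 ± 0.085 in MDA-MB-231 (adjusted p = 2.4e-18 and 1.75e-10) and rose by 1.20 ± 0.083 and 1.73 ± 0.092 in MDA-MB-436 (adjusted p = 2.45e-14 and 4.41e-11). The MDA-MB-231 response less that of MDA-MB-436 was -2.62 ± 0.11, adjusted p = 2.21e-20 in low and -3.23 ± 0.13, adjusted p = 1.05e-12 in standard serum.

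PLXNA4, a partner of neuropilin in SEMA3A signalling, and PLXNB3, a receptor of SEMA5A, fell in the 7TGP-POS subline of MDA-MB-436. PLXNA4 went from 10.0 and 8.59 CPM to 4.04 and 4.73 CPM in low serum and from 3.11 and 3.83 CPM to 1.02 and 0.960 CPM in standard serum (-1.10 ± 0.13, adjusted p = 1.96e-09 and -1.86 ± 0.22, adjusted p = 1.38e-06). In MDA-MB-231 PLXNA4 had 4.70 and 4.84 CPM in 7TGP-NEG and 3.48 and 3.28 CPM in 7TGP-POS in low serum, and 0.635 and 0.534 CPM and 0.385 and 0.446 CPM in standard serum. PLXNB3 stood at 80.7 and 80.4 CPM in MDA-MB-436 7TGP-NEG and 36.0 and 41.4 CPM in 7TGP-POS in low serum, and at 74.0 and 99.1 CPM and 17.2 and 29.6 CPM in standard serum (-1.07 ± 0.10, adjusted p = 2.7e-06 and -1.95 ± 0.31, adjusted p = 0.00579). Its replicates in standard serum were wide apart. The MDA-MB-231 libraries had 82.4 and 77.3 CPM and 69.2 and 53.1 CPM in low serum and 18.4 and 19.6 CPM and 23.9 and 31.0 CPM in standard serum, without a call. Less the median of its 50 neighbours, the MDA-MB-436 value in low serum was -0.95, which ends that call. PLXNB1 was called higher in MDA-MB-436 in low serum (1.13 ± 0.094, adjusted p = 3.77e-07), with 0.96 without 7TGP-POS replicate 2 and 0.59 less its neighbours. PLXND1, the receptor of SEMA3E, fell by 1.25 in MDA-MB-436 in standard serum (adjusted p = 3.12e-10) and by 0.29 in low serum, below the size limit. NRP1 and NRP2 were not called with reporter status in either line.

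**Figure D4:**
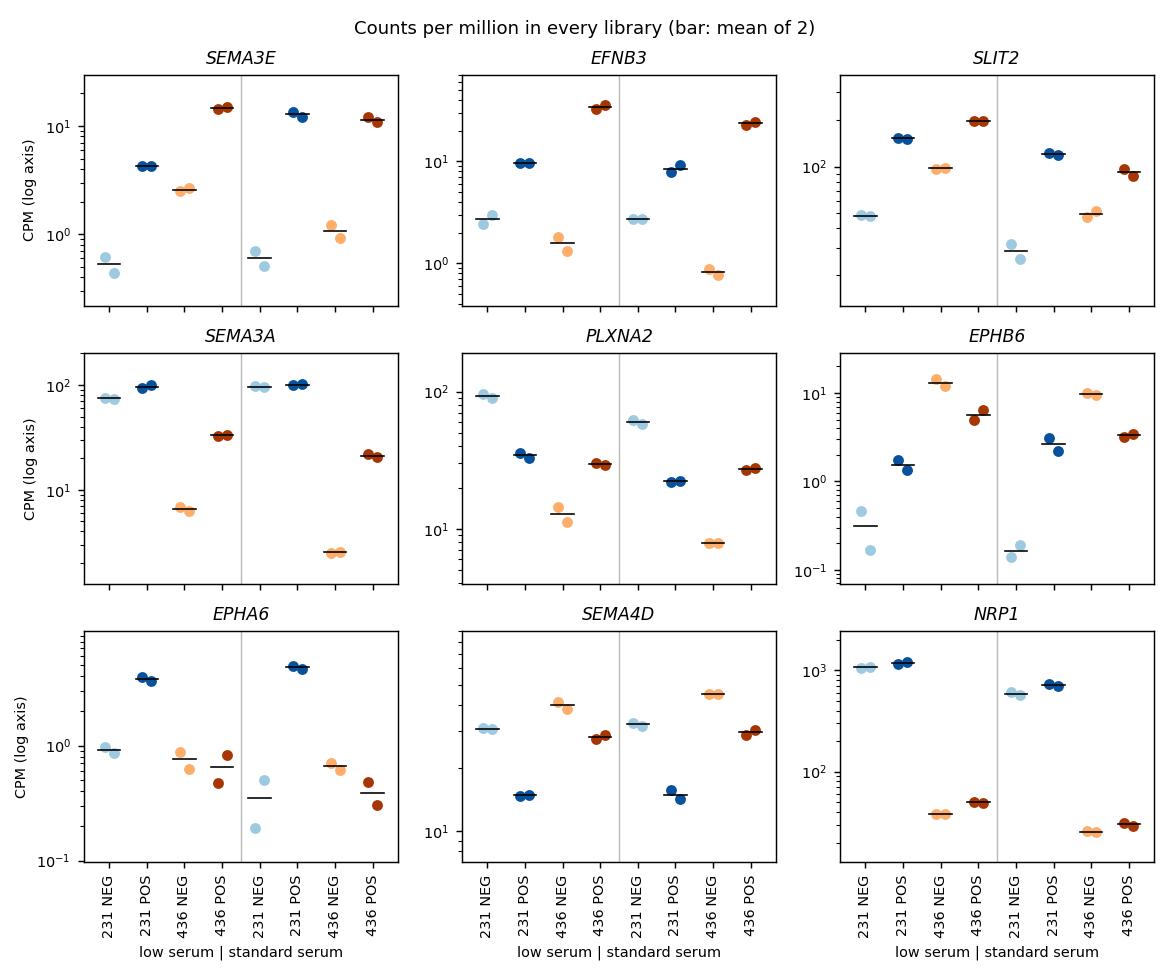
CPM (y axis, log scale) of 9 members in every library, grouped by subline (x axis) with low serum left of the grey line and standard serum right of it. Points are libraries (blue MDA-MB-231, orange MDA-MB-436, dark shades 7TGP-POS) and bars are means of 2; in SEMA3E and EFNB3 the dark points lie above the pale ones of their line in both serum conditions, in PLXNA2 and EPHB6 the 2 lines run in opposite directions, and in NRP1 the lines stand apart whatever the reporter status.

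Slits are secreted ligands of the Robo receptors. SLIT2 (ENSG00000145147, chromosome 4, 20253528 to 20622184) was at 49.0 and 47.8 CPM in MDA-MB-231 7TGP-NEG and 152 and 151 CPM in 7TGP-POS in low serum, and at 31.9 and 25.4 CPM and 122 and 119 CPM in standard serum. In MDA-MB-436 it had 97.0 and 98.0 CPM and 195 and 196 CPM in low serum and 47.1 and 51.9 CPM and 97.1 and 87.4 CPM in standard serum. SLIT2 was higher in 7TGP-POS in each of the 4. It was called in MDA-MB-231 (1.66 ± 0.053, adjusted p = 1.25e-26 and 2.01 ± 0.11, adjusted p = 7.63e-09) and passed by adjusted p alone in MDA-MB-436 (0.99 ± 0.05, adjusted p = 2.96e-20 and 0.84 ± 0.11, adjusted p = 1.63e-05). The difference between the lines was called in standard serum (1.17 ± 0.15, adjusted p = 2.86e-05) but was below the size limit in low serum (0.67 ± 0.072, adjusted p = 3.26e-10).

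Of the receptors, ROBO1 rose by 0.55 and 0.52 in MDA-MB-231 below the size limit, and ROBO3 was called there in standard serum (1.20 ± 0.13, adjusted p = 5.07e-05), with 0.99 without 7TGP-POS replicate 2. ROBO2 rested on 27 and 17 counts in MDA-MB-231 7TGP-POS against 1 and 0 in 7TGP-NEG in standard serum, a ratio of 43.0 (95% counting interval 7.33 to 1738, which like the others here covers counting error only). In low serum its log2 fold change in MDA-MB-231 was 0.067 ± 0.54. ROBO4, the Robo of blood vessels, fell by 1.75 in MDA-MB-436 in low serum (adjusted p = 9.15e-07) but stood at 0.093 ± 0.23 in standard serum.

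Netrins attract or repel through DCC and UNC5 receptors. NTN4 (ENSG00000074527), a netrin of basement membranes, was at 4.81 and 4.61 CPM in MDA-MB-436 7TGP-NEG and 9.54 and 10.9 CPM in 7TGP-POS in low serum, and at 7.02 and 6.54 CPM and 18.2 and 16.4 CPM in standard serum. MDA-MB-231 7TGP-NEG had 38.7 and 39.2 CPM in low and 91.4 and 88.2 CPM in standard serum, and 7TGP-POS 62.3 and 64.9 CPM and 121 and 119 CPM. The 7TGP-POS libraries were higher in each of the 4, with calls in MDA-MB-436 (1.10 ± 0.11, adjusted p = 1.2e-11 and 1.30 ± 0.10, adjusted p = 4.06e-09) and adjusted p alone in MDA-MB-231 (0.72 and 0.36). The low serum call became 0.99 without MDA-MB-436 7TGP-POS replicate 2. NTN3 in MDA-MB-436 in low serum rested on 10 and 22 counts against 0 and 2, a ratio of 16.5 (95% counting interval 4.20 to 142).

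UNC5 receptors mediate repulsion and can act as dependence receptors. UNC5B fell by 1.10 in MDA-MB-436 in standard serum (adjusted p = 1.7e-07), which became -0.64 less its neighbours, and its low serum value was -0.15 ± 0.11. In MDA-MB-231 in standard serum UNC5B had 0.237 and 0.279 CPM in 7TGP-POS against 0.690 and 0.314 CPM in 7TGP-NEG, on counts of 8 and 10 against 25 and 10, and was called at -1.03 ± 0.38 (adjusted p = 0.0456), which was lost without 5 of the 8 libraries and was -0.32 without 7TGP-NEG replicate 1. UNC5C fell by 1.31 in MDA-MB-436 in standard serum (adjusted p = 0.00207), but DESeq2 gave an adjusted p of 0.122. NTN1, NTN5, UNC5A, UNC5D and DCC were not called with reporter status.

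Ephrins of class A are lipid-anchored and those of class B span the membrane. EFNB3 (ENSG00000108947, chromosome 17, 7608520 to 7614690) was at 2.41 and 3.00 CPM in MDA-MB-231 7TGP-NEG and 9.66 and 9.52 CPM in 7TGP-POS in low serum, and at 2.70 and 2.73 CPM and 7.82 and 9.14 CPM in standard serum. In MDA-MB-436 it went from 1.81 and 1.33 CPM to 33.0 and 35.5 CPM in low serum and from 0.888 and 0.766 CPM to 22.9 and 24.4 CPM in standard serum. The largest level was thus in MDA-MB-436 7TGP-POS, whose 7TGP-NEG partner had the lowest. The changes were 1.83 ± 0.13, adjusted p = 9.89e-15 and 1.59 ± 0.14, adjusted p = 6.16e-08 in MDA-MB-231, and 4.42 ± 0.13, adjusted p = 1.13e-28 and 4.78 ± 0.16, adjusted p = 4.66e-14 in MDA-MB-436. The response was larger in MDA-MB-436, since the MDA-MB-231 response less the other was -2.59 ± 0.21, adjusted p = 1.7e-13 in low and -3.19 ± 0.22, adjusted p = 2.5e-09 in standard serum. Of the other genes tested within 10 Mb of EFNB3 on chromosome 17, the median log2 fold change was between -0.10 and 0.070 in the 4 comparisons.

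EFNA5 was called higher in MDA-MB-436 in standard serum (1.51 ± 0.093, adjusted p = 3.12e-10), but 0.66 remained less its neighbours. EFNA2 was called lower there in low serum (-1.09 ± 0.19, adjusted p = 3.49e-06), with -0.998 and no call without 7TGP-NEG replicate 1. Less its neighbours EFNA2 stood at -0.95, which also ends the call. EFNA1, a ligand of EPHA2, was 0.94 ± 0.076 in MDA-MB-436 in low serum (adjusted p = 9.61e-14), below the size limit. EFNA3, EFNA4, EFNB1 and EFNB2 were not called in any of the 4 comparisons.

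EPHA receptors bind mainly A-class ephrins. EPHA3 (ENSG00000044524) was at 0.673 and 0.698 CPM in MDA-MB-436 7TGP-NEG and 4.83 and 5.19 CPM in 7TGP-POS in low serum (2.85 ± 0.23, adjusted p = 4.65e-14), and at 0.0592 and 0.0766 CPM and 1.09 and 0.960 CPM in standard serum. As 7TGP-NEG then held 2 and 3 counts, the standard serum change is a ratio of 15.0 (95% counting interval 6.19 to 47.5, adjusted p = 9.1e-06). In MDA-MB-231 the highest library had 0.119 CPM, and its call in standard serum rested on 4 and 2 counts against 0 and 0, which is not above the floor of 3 counts per library, and was lost without 6 of the 8 libraries (adjusted p = 0.0526 to 0.168).

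EPHA5 (ENSG00000145242) and EPHA6 (ENSG00000080224) rose in the 7TGP-POS subline of MDA-MB-231. EPHA5 had 5.45 and 5.47 CPM in 7TGP-NEG and 14.0 and 14.0 CPM in 7TGP-POS in low serum, and 2.59 and 2.33 CPM and 7.85 and 7.97 CPM in standard serum (1.37 ± 0.12, adjusted p = 1.25e-12 and 1.63 ± 0.17, adjusted p = 7.36e-07). In MDA-MB-436 its values were 0.735 and 0.524 CPM and 1.45 and 1.72 CPM in low serum, also a call (1.30 ± 0.27, adjusted p = 8.19e-05), and 0.0888 and 0.153 CPM and 0.174 and 0.110 CPM in standard serum, where the groups overlapped. EPHA6 moved from 0.978 and 0.868 CPM to 3.94 and 3.63 CPM in MDA-MB-231 in low serum and from 0.193 and 0.503 CPM to 4.95 and 4.66 CPM in standard serum (2.04 ± 0.23, adjusted p = 1.33e-09 and 3.76 ± 0.30, adjusted p = 2.41e-08). In MDA-MB-436 EPHA6 had 0.888 and 0.629 CPM and 0.474 and 0.824 CPM in low serum and 0.711 and 0.613 CPM and 0.478 and 0.302 CPM in standard serum. The cell lines differed in the EPHA6 response in both serum conditions (2.31 ± 0.43, adjusted p = 1.68e-05 and 4.53 ± 0.50, adjusted p = 1.01e-06).

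EPHA7 (ENSG00000135333) was lower in MDA-MB-436 7TGP-POS, with 12.3 and 10.9 CPM against 3.98 and 3.76 CPM in low serum and 2.87 and 2.53 CPM against 0.738 and 0.631 CPM in standard serum (-1.59 ± 0.15, adjusted p = 1.23e-11 and -2.02 ± 0.25, adjusted p = 2.96e-06). In MDA-MB-231 it had 1.96 and 3.14 CPM and 1.10 and 1.55 CPM in low serum and 0.717 and 0.440 CPM and 0.711 and 0.809 CPM in standard serum, with no call. EPHA2, the most abundant member, changed little, with log2 fold changes between -0.19 and 0.35 over the 4 comparisons. EPHA4, which binds ephrins of both classes, stayed below the size limit in all 4, and EPHA1, EPHA8 and EPHA10 were not called in those in which they were tested.

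EPHB receptors bind mainly B-class ephrins. EPHB6 (ENSG00000106123, chromosome 7, 142552823 to 142568847), a member of the family without kinase activity, was at 0.457 and 0.167 CPM in MDA-MB-231 7TGP-NEG and 1.74 and 1.34 CPM in 7TGP-POS in low serum, and at 0.138 and 0.189 CPM and 3.08 and 2.23 CPM in standard serum. In MDA-MB-436 7TGP-NEG it had 14.2 and 11.9 CPM in low and 9.92 and 9.55 CPM in standard serum, against 4.90 and 6.48 CPM and 3.19 and 3.46 CPM in 7TGP-POS. As with PLXNA2, the lines were far apart in 7TGP-NEG and closer in 7TGP-POS. EPHB6 rose in MDA-MB-231 (2.29 ± 0.37, adjusted p = 3.77e-06 and 3.96 ± 0.32, adjusted p = 2.62e-08) and fell in MDA-MB-436 (-1.22 ± 0.14, adjusted p = 2.08e-09 and -1.61 ± 0.16, adjusted p = 2.33e-07). The difference of the responses was 3.52 ± 0.38, adjusted p = 1.92e-09 in low and 5.56 ± 0.36, adjusted p = 8.56e-10 in standard serum.

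EPHB3 (ENSG00000182580), in the intestine a known target of Tcf factors, was lower in MDA-MB-436 7TGP-POS. It had 6.43 and 6.43 CPM in 7TGP-NEG and 2.53 and 2.76 CPM in 7TGP-POS in low serum, and 6.25 and 5.87 CPM and 1.93 and 2.06 CPM in standard serum (-1.30 ± 0.17, adjusted p = 1.6e-08 and -1.66 ± 0.18, adjusted p = 6.22e-07). The MDA-MB-231 values were 0.978 and 0.734 CPM and 1.00 and 1.66 CPM in low serum and 0.276 and 0.471 CPM and 0.445 and 0.362 CPM in standard serum, with no call. EPHB1 was low throughout, with 1.19 and 1.40 CPM in MDA-MB-436 7TGP-NEG and 0.569 and 0.716 CPM in 7TGP-POS in low serum, and 0.740 and 1.25 CPM and 0.391 and 0.247 CPM in standard serum (-1.02 ± 0.32, adjusted p = 0.00662 and -1.67 ± 0.40, adjusted p = 0.00189). DESeq2 called neither (adjusted p = 0.108 and 0.0878), and the calls were lost without low serum 7TGP-NEG replicate 2 (-0.90), low serum 7TGP-POS replicate 1 (-0.92) or standard serum 7TGP-NEG replicate 2 (-1.24, adjusted p = 0.0740). In MDA-MB-231 in low serum, EPHB1 counted 12 and 12 in 7TGP-POS against 1 and 3 in 7TGP-NEG, a ratio of 6.24 (95% counting interval 2.14 to 24.7), and the call was lost without 7TGP-NEG replicate 1 (adjusted p = 0.0524). Its standard serum libraries of MDA-MB-231 held at most 2 counts. EPHB4, the receptor of EFNB2, was called higher in MDA-MB-436 in low serum (1.22 ± 0.051, adjusted p = 4.34e-23), which became 0.50 less its neighbours, and EPHB2 was not called in any of the 4.

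The difference between the cell lines in their response was tested as an interaction. It was called for 16 of 68 members in low serum, against 11.7% of all genes, and for 21 of 65 in standard serum, against 13.8%. By adjusted p alone, 38 and 37 members passed, against 45.7% and 41.2% of all genes. The 9 called in both serum conditions, against 6.91% of all genes, were EFNB3, EPHA6, EPHB3, EPHB4, EPHB6, PLXNA2, SEMA3A, SEMA3C and SEMA3D. Less the median of neighbouring genes, SEMA3C (-0.77) and SEMA3D (-0.93) in low serum and EPHB4 in both (-0.33 and -0.58) were no longer called.

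The 7TGP-NEG sublines of the 2 lines were then compared, which asks how the guidance genes differ between the lines without reporter activity. These libraries are also the controls of the comparisons above. In low serum 39 of 68 members were called, 19 higher and 20 lower in MDA-MB-231, against 41.9% of all genes, 20.5% higher and 21.4% lower. In standard serum 44 of 65 were called, 20 higher and 24 lower, against 46.7% of all genes, 21.3% higher and 25.4% lower. Of 65 members tested in both serum conditions, 17 were called higher in MDA-MB-231 in both and 17 lower, against 16.5% and 18.8% of all genes, and none changed direction. Median log2 differences of the members were 0.18 and -0.55, against 0.0096 and -0.088 for all genes. With members at or under 3 counts in a group taken at their bound or ratio, the medians were 0.12 and 0. Members at or under 3 counts in both groups were set to 0 there. In standard serum these were DCC, EPHA3 and EPHA8, so the median of 0 is itself a set value.

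Of 11 plexins and neuropilins, 5 were called higher in MDA-MB-231 and 0 lower in low serum, against 20.5% and 21.4% of all genes. In standard serum 6 were called higher and 3 lower, against 21.3% and 25.4% of all genes. Whether this group departs from these shares was not tested. NRP1, a co-receptor of class 3 semaphorins and of VEGF, stood at 1057 and 1084 CPM in MDA-MB-231 7TGP-NEG against 38.4 and 38.6 CPM in MDA-MB-436 7TGP-NEG in low serum, and at 610.3 and 564 CPM against 25.8 and 25.5 CPM in standard serum (4.90 ± 0.061, adjusted p = 1.41e-42 and 4.72 ± 0.092, adjusted p = 2.03e-18). NRP2 differed by 4.18 and 4.69, PLXNA2 by 2.96 and 3.14, PLXNA1 by 1.88 and 2.16, and PLXNB2 by 1.57 and 1.78. Of the ligands, SEMA3A, SEMA7A and NTN4 were higher in MDA-MB-231, by 3.61, 5.02 and 3.15 in low serum and by 5.46, 6.14 and 3.94 in standard serum. ROBO4 was higher by 5.94 and 6.86, EPHA2 by 1.87 and 2.39, and EPHB2 by 2.48 and 2.53. PLXNA4 and PLXNB3 were lower in MDA-MB-231 in standard serum, at -2.35 ± 0.25 and -1.98 ± 0.31, and PLXNB3 stood at -0.084 less its neighbours, which ends its call. PLXNA3 was also lower there (-1.76 ± 0.18), close to the median of its 50 neighbours on chromosome X (-1.77).

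NTN1 and the receptors UNC5A, UNC5B and UNC5C were lower in MDA-MB-231 in both serum conditions, whereas NTN4 and NTN5 were higher. NTN1 (ENSG00000065320), the founding netrin, was at 75.7 and 74.3 CPM in MDA-MB-436 7TGP-NEG against 0.0326 and 0.234 CPM in MDA-MB-231 7TGP-NEG in low serum (-9.004 ± 0.17, adjusted p = 2.38e-34). As MDA-MB-231 7TGP-NEG held 1 and 7 counts, NTN1 ranged from -10.9 to -8.20 when each library was left out in turn. In standard serum it counted 2278 and 2795 in MDA-MB-436 against 1 and 0 in MDA-MB-231, a ratio of 4735 (95% counting interval 849 to 187057). UNC5A counted 202 and 234 against 0 and 0 in standard serum, so that MDA-MB-436 was at least 67.5-fold higher against a floor of 3 counts per library, and UNC5B was lower in MDA-MB-231 by 3.60 and 6.78 on the log2 scale. SLIT3 counted 120 and 161 against 0 and 0, so that MDA-MB-436 was at least 43.3-fold higher. SEMA5A, EPHB6, EPHB3 and EFNA2 were also lower in MDA-MB-231 in both, with log2 differences in low serum of -7.35, -5.26, -2.80 and -4.22. Calls lost without 1 library in low serum were EFNA5 (0.995 without MDA-MB-231 7TGP-NEG replicate 1), which also stood at 0.010 less its neighbours, and ROBO3 (0.98 without MDA-MB-231 7TGP-NEG replicate 1 or MDA-MB-436 7TGP-NEG replicate 2, and 0.999 without either MDA-MB-436 7TGP-POS replicate). NTN3 lost its call without replicate 1 of either 7TGP-NEG subline (adjusted p = 0.209 and 0.222), and NTN5 without MDA-MB-231 7TGP-NEG replicate 1 or MDA-MB-436 7TGP-NEG replicate 2 (adjusted p = 0.179 and 0.247). In standard serum SEMA4A lost its call without either MDA-MB-231 7TGP-NEG replicate or MDA-MB-436 7TGP-NEG replicate 1 (adjusted p = 0.0802 to 0.120), and EPHA3, at 0 against 5 counts, without any of the 7TGP-NEG libraries or MDA-MB-436 7TGP-POS replicate 1 (adjusted p = 0.0501 to 0.125).

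**Figure D5:**
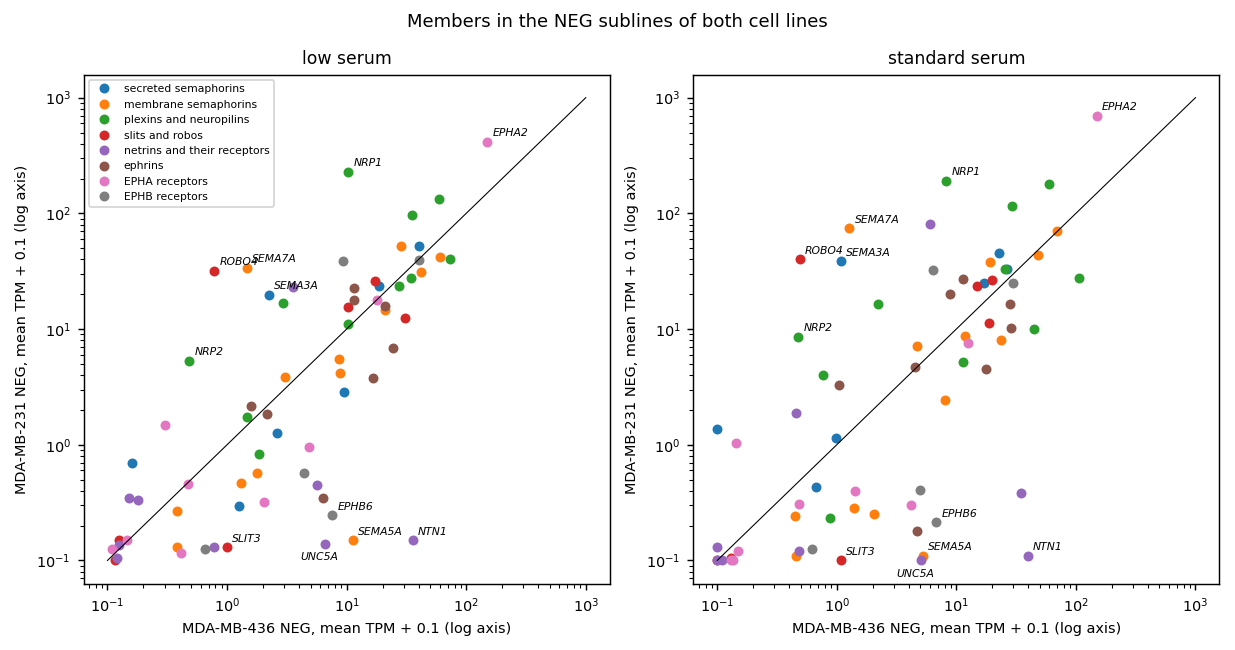
Mean TPM + 0.1 of each member in the 7TGP-NEG subline of MDA-MB-436 (x axis) and MDA-MB-231 (y axis), both on log scales, in low and standard serum, coloured by role. Points on the diagonal are equal in both; NRP1, NRP2, SEMA7A and ROBO4 lie far above it and NTN1, UNC5A and SEMA5A far below, in both panels.

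Other genes of the pathway were taken from lists. Beside their counts stand the shares of all genes tested that were called with reporter status. For MDA-MB-231, low serum gave 3.50% higher and 2.40% lower, and standard serum 4.96% and 2.72%. For MDA-MB-436, low serum gave 6.52% and 4.03%, and standard serum 6.47% and 6.06%. Whether any list departs from these shares was not tested. Of 21 further guidance ligands and receptors, 0 were called higher and 2 lower in MDA-MB-231 in low serum, and 0 and 2 of 19 in standard serum. In MDA-MB-436 the counts were 3 and 0 of 21 in low serum and 3 and 3 of 19 in standard serum. Median log2 fold changes of this list were -0.38 and -0.033 in MDA-MB-231 and 0.33 and 0.24 in MDA-MB-436, in low and standard serum. DSCAM, a netrin receptor, fell by 2.04 and 1.68 in MDA-MB-231, where it was low at 0.115 to 0.725 TPM. FLRT2 and FLRT3, ligands of UNC5 and latrophilin receptors, rose in MDA-MB-436, FLRT2 by 3.39 and 2.21 and FLRT3 by 2.34 and 1.44. Their levels there were 1.52 to 13.93 TPM for FLRT2 and 0.14 to 1.405 TPM for FLRT3. Of 42 cytoplasmic effectors, 0 and 1 were called higher and lower in MDA-MB-231 in low serum, 2 and 2 in standard serum, and in MDA-MB-436 4 and 4, then 5 and 3, with medians between -0.11 and 0.077. The effectors called in both serum conditions in MDA-MB-436 were the chimaerin CHN2, the kinase FYN and the Slit-Robo GTPase-activating protein SRGAP3, which rose by 1.18 to 1.60, and KALRN, PAK3 and TRIO, which fell. CHN2, SRGAP3, KALRN and PAK3 were low in that line, with at most 0.96, 2.46, 0.645 and 1.52 TPM. TRIO fell by 1.50 and 1.04 where the medians of its 50 neighbours were -1.25 and -1.13. Of 10 Wnt feedback targets, 1 was called higher and 0 lower in MDA-MB-231 in each serum condition, and in MDA-MB-436 1 and 1, then 1 and 2, with medians between -0.10 and 0.33. DKK1, a secreted Wnt antagonist, was the one called in both conditions of a line, with 2.11 and 1.78 in MDA-MB-436. Beside these changes, the mesenchymal marker VIM fell by 1.05 and 1.03 in MDA-MB-231 7TGP-POS. SPARC rose by 2.97 and 2.78 in MDA-MB-436 7TGP-POS, where SNAP25, a neuronal marker, also rose by 2.30 and 1.13. Over all 7 mesenchymal markers the medians were 0.31 and 0.23 in MDA-MB-231, with 0 and 1 called higher and 1 and 2 lower. In MDA-MB-436 these medians were 0.16 and 0.49, with 2 and 1 called higher and 0 lower. Of the 3 neuronal markers tested in MDA-MB-436, 1 was called higher and 0 lower in each serum condition, with medians of -0.073 and 0.75. The part of these markers in the results was not tested.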

How the data were processed

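RNA of 16 libraries was sequenced in bulk. Gene counts and TPM values were deposited by the authors as 1 count table and 1 TPM table per serum condition. Per the labels' processing notes and the study's methods, the authors aligned reads to hg19 with STAR (version 2.6.1a in the notes), removed ribosomal reads and counted them on Gencode genes, whereas how TPM were calculated and whether counting used strand are not given in the sources used here. An annotated gene overlapped 39 of the members on the opposite strand. The count tables hold raw counts and no comparisons of the authors.

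Counts of protein-coding genes with a sum of at least 10 over a serum condition were tested with edgeR 4.0.16 (R 4.3.3) by a robust quasi-likelihood fit of 4 groups in 1 model per serum condition, with TMM factors of 0.90 to 1.11 and Benjamini-Hochberg adjustment over all genes tested. Symbols, biotypes and GRCh37 positions were taken from Gencode. Contrasts were 7TGP-POS against 7TGP-NEG in each line, their difference between the lines (MDA-MB-231 minus MDA-MB-436), and MDA-MB-231 against MDA-MB-436 within 7TGP-NEG. A gene was called where the adjusted p was under 0.05 and the log2 fold change, in absolute size, reached 1. Values in every library are given for members called in the same direction in both serum conditions of a line, and genes of the other lists are named where called in both. The mutations of the lines and 1 result of the lists are not reported here. The members and lists were chosen with earlier results of these data known.

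Groups came from the sample labels. With totals of 27918418 to 46044073 counts, 1 count is 0.0217 to 0.0358 CPM. Counting intervals are exact (95%), and folds against a group without counts use a floor of 3 counts per library. Alternatives were DESeq2 1.42.0, its size factors, 2 other filters, all biotypes, adjusted p alone, limma 3.58.1 on log2(TPM + 1) and log2(TPM + 0.1), a replicate block, leaving out each library, and subtracting the median of the 50 nearest genes. The fits were tested on simulated counts with the same spread for all genes and with changes above the size limit, planted in well-counted genes only. That test does not cover members with few counts, spreads that differ between genes or changes near the size limit. Tables and figures were made with Python 3.11.15, pandas 2.3.3, numpy 2.4.6 and matplotlib 3.10.9.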

Additional observations from a re-analysis of the deposited data

Results flagged for a closer look

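These members were flagged because the reporter response differed between the cell lines by the interaction term of edgeR's quasi-likelihood test. Values are differences of log2 fold changes, MDA-MB-231 minus MDA-MB-436. Among semaphorins, the difference in low serum was -1.94 for SEMA3A, -1.08 for SEMA3B, -1.56 for SEMA3C, -1.73 for SEMA3D and -1.18 for SEMA4G. In standard serum it was -3.005 for SEMA3A, -2.10 for SEMA3C, -1.92 for SEMA3D, -5.70 for SEMA3G, 1.13 for SEMA6A, 1.36 for SEMA6D and 1.09 for SEMA7A. The SEMA3G value is a fitted one of a gene with 0 counts in MDA-MB-436 7TGP-NEG, and its size depends on the prior count.

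Among plexins, PLXNA2 differed by -2.62 and PLXNB1 by -1.23 in low serum, and PLXNA2 by -3.23, PLXNA4 by 1.31, PLXNB3 by 2.43 and PLXNC1 by 1.21 in standard serum. For slits, Robo receptors and netrins the values were 1.94 for ROBO4 and -4.37 for NTN3 in low serum, and 1.17 for SLIT2, 6.97 for ROBO2 and 1.47 for ROBO3 in standard serum. NTN3 and ROBO2 had 3 or fewer counts in a group, so that these fitted values also depend on the prior count.

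Among ephrins, EFNB3 differed by -2.59 in low serum, and EFNB3 by -3.19 and EFNA5 by -1.24 in standard serum. The Eph receptors EPHA6, EPHA10, EPHB1, EPHB3, EPHB4 and EPHB6 differed by 2.31, -1.45, 3.60, 1.93, -1.16 and 3.52 in low serum. In standard serum EPHA6, EPHA7, EPHB3, EPHB4 and EPHB6 differed by 4.53, 2.34, 1.73, -1.08 and 5.56.

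Less the median of 50 neighbouring genes, 7 members lost the call, in low serum PLXNB1 at -0.68, SEMA3B at -0.47, SEMA3C at -0.77, SEMA3D at -0.93, EPHB4 at -0.33 and SEMA4G at -0.76, and in standard serum EPHB4 at -0.58 and EFNA5 at -0.51. By DESeq2's Wald test in standard serum, PLXNA4, SEMA6A and SEMA6D had adjusted p = 0.0989, 0.0788 and 0.0523.

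Some of these calls rested on 1 library. In low serum, SEMA3B was -0.94 and -0.96 without replicate 2 of MDA-MB-231 7TGP-POS and of MDA-MB-436 7TGP-POS, and NTN3 had an adjusted p of 0.0651 without MDA-MB-231 7TGP-NEG replicate 1. In standard serum, leaving out MDA-MB-436 7TGP-NEG replicate 2 gave adjusted p = 0.227 for ROBO2 and 0.0691 for PLXNA4 and a difference of 0.85 for PLXNC1. Without replicate 2 of MDA-MB-231 7TGP-POS or 7TGP-NEG, PLXNA4 had adjusted p = 0.0878 and 0.0610. EPHB4 was -0.98 without MDA-MB-436 7TGP-POS replicate 2, and SEMA7A 0.995 without MDA-MB-436 7TGP-POS replicate 1. Adjusted p was 0.0618 and 0.0559 for PLXNB3 without MDA-MB-231 7TGP-NEG replicate 1 and 2, and 0.0611 and 0.117 for SEMA6A without MDA-MB-231 7TGP-POS replicate 1 and 7TGP-NEG replicate 1. SEMA6D had 0.0572, 0.0516 and 0.0571 without MDA-MB-436 7TGP-NEG replicate 1, MDA-MB-231 7TGP-POS replicate 1 and MDA-MB-231 7TGP-NEG replicate 2.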

How the results depend on the processing

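Of 144 counts of called members under the alternatives, 132 lay within 1.5 times the count reported and 12 did not. With limma on log2(TPM + 1), which draws the fold changes of low genes towards 0, members called for reporter status were 4 in MDA-MB-231 and 11 in MDA-MB-436 under low serum, 8 and 13 under standard serum, the interaction in low serum had 10, and the 7TGP-NEG comparison of the lines in low serum had 24. With adjusted p alone they were 36 and 46 under low serum, 29 and 44 under standard serum, and the interaction had 38 and 37. Leaving out each library in turn gave 9 to 10 (MDA-MB-231) and 19 to 21 (MDA-MB-436) in low serum, and 10 to 15 and 18 to 21 in standard serum. The interaction had 15 to 18 and 19 to 25, and the lines 37 to 40 and 42 to 44. Same-numbered replicates share only a number, with correlations of deviations of -0.0036 and -0.060 in low and 0.112 and 0.085 in standard serum. With the replicate block, 9 and 21 members were called under low serum, 12 and 20 under standard serum, 16 and 21 for the interaction, and 39 and 44 between the lines. Of 3124 values of single called members under the alternatives, 2914 kept direction and call, 209 lost the call and 1 turned. PLXNA3, lower in MDA-MB-231 than in MDA-MB-436 7TGP-NEG in standard serum, became 0.0075 less its neighbours. With 2 replicates per group, values of members near the limit of 10 counts rest on few counts.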
